A study of Homo sapiens with 9 samples.

Results

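Brain metastatic BrM2 cells were compared directly with lung metastatic LM2 cells by RNA-seq, using 6 of the 9 libraries of the study, 3 per line. Both lines are sub-populations of MDA-MB-231, a human breast cancer line that lacks hormone receptors and has a mesenchymal, claudin-low character. They were obtained by selection in vivo for colonization of lung (LM2) or brain (BrM2). The parental line (Par) was used to place a difference between them. Its 3 libraries also entered the same fit, and so its filter, normalization and estimate of spread. All 3 lines received no treatment and were grown for 3 days as monolayers in DMEM with 10% FBS and antibiotics. No lung or brain tissue was present, and the replicates of a line were harvests at different passages. Each line is a single selected population, so that tropism cannot be told apart from other ways in which these 2 populations differ. Of 58884 genes in the count table, 13055 passed the filter on low counts and were tested.

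Metastatic cells must leave the circulation, survive and grow in an organ whose vessels, matrix and resident cells differ from those of the breast. In the lung, arriving cells are held in a dense capillary bed and grow into a tissue rich in collagen and elastin, to which matrix proteins such as SPARC and tenascin are added during colonization. In the brain, cells must cross the tight endothelium of the blood-brain barrier, and then meet neurons, astrocytes and microglia. Adhesion molecules, secreted proteases, chemokines and their receptors have therefore been the gene classes most often followed in models of this kind.

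Library totals were 14371858 to 22055215 counts for BrM2 and 23581487 to 24511786 for LM2, and mitochondrial genes took between 4.76% and 8.27% of the counts in the 9 libraries, with the highest share in LM2 replicate 1. The replicate 1 libraries of the 3 lines stood apart together: 9473 tested genes (72.6%) differed between replicate 1 and the other replicate numbers, and these differences followed the GC content of the transcripts (a rank correlation of 0.8 by Spearman over the genes, which are no independent replicates). For the difference between BrM2 and LM2 this correlation was 0.22. The replicate number was therefore kept as a block in every test, and counts of genes are given also without the block and without replicate 1, and with a GC correction where it moved a count by over 1.5 times or turned its balance. The markers of the parental cells VIM, CD44, AXL, KRT8 and KRT18 were present in all 6 libraries (mean CPM of 410 or more in each line). Of 8 markers expected to be low or absent (ESR1, PGR, ERBB2, EPCAM, CLDN3, CLDN4, CLDN7 and CDH1), 4 were tested. In BrM2, 2 of these rose and 0 fell (median 0.65), where 17.8% of all tested genes rose. Only 1 rose without the block, and 2 rose without replicate 1. The 8 markers summed to 91.9 to 172 CPM in BrM2 and 84.4 to 145 CPM in LM2. No leukocyte marker was tested, and the 6 leukocyte markers together summed to at most 0.575 CPM in any BrM2 library and at most 0.408 CPM in any LM2 library. Of the defining brain markers, OLIG2 had no count and RBFOX3 and AQP4 had at most 1 count in any of the 6 libraries. Of the lung epithelial markers, SFTPA1 and SCGB1A1 had no count in the 6 libraries and SFTPC and SFTPB had at most 1 in any of them. NAPSA and AGER had more counts. Of the 6 lung markers 1 was tested and did not pass (log2 fold change -0.3). Together they summed to 3.09 to 4.8 CPM in BrM2 and 4.21 to 6.66 CPM in LM2. The 6 neuron and glia markers summed to 145 to 156 CPM in BrM2 and 112 to 123 CPM in LM2, most of it MBP. Of the 3 tested ones MBP rose (0.46 ± 0.11, adjusted p = 0.007), while GFAP (-0.79 ± 0.20, adjusted p = 0.011) and SYP (-1.12 ± 0.29, adjusted p = 0.011) fell. Their part in the neural genes described below was not tested. The sums of the 5 endothelial markers did not overlap, with 14.6 to 15.2 CPM in BrM2 and 7.59 to 9.88 CPM in LM2. TIE1 was the endothelial marker that rose in BrM2 (log2 fold change 2.31 ± 0.32, adjusted p = 0.00034), while CDH5 stayed at 4 counts or fewer in every library of both lines. The fibroblast marker sums overlapped (7.64 to 10.9 CPM in BrM2, 6.24 to 13.1 CPM in LM2).

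Between BrM2 and LM2, 4896 of 13055 tested genes (37.5%) passed an adjusted p of 0.05 in the quasi-likelihood test of edgeR, whose Benjamini-Hochberg adjusted p-values are used throughout. In BrM2, 2328 genes were higher (17.8% of those tested) and 2568 were lower (19.7%). "Rose" and "fell" refer below to BrM2 relative to LM2, and a log2 fold change is given with its standard error from a fit with n = 3 libraries per line. Most differences were moderate, with a median absolute log2 fold change of 0.75 among the genes that passed. More than 2-fold changes were estimated for 726 of the higher and 796 of the lower genes, and more than 32-fold changes for 75 and 33. Among the 4896 genes, 4874 (99.6%) differed in the same direction in 3 of 3 replicate numbers. The test that chose these genes used the same differences by replicate number, so a high share was built in. The CPM of the 2 lines did not overlap for 3015 tested genes (23.1%). Without the block the count was 1057 (8.1%, 536 higher and 521 lower), and without replicate 1 it was 3725. The count fell further without replicate 3 (2066), LM2 replicate 2 (2902), BrM2 replicate 3 (2962) or LM2 replicate 3 (3144). With the replicate number as a block, the p-values measure only the spread between harvests that remains after the effect of that number. The whole spread between harvests of a line at different passages enters only the fit without the block. The dispersion estimated over all genes was 0.0207 with the block and 0.11 without it.

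**Figure D1:**
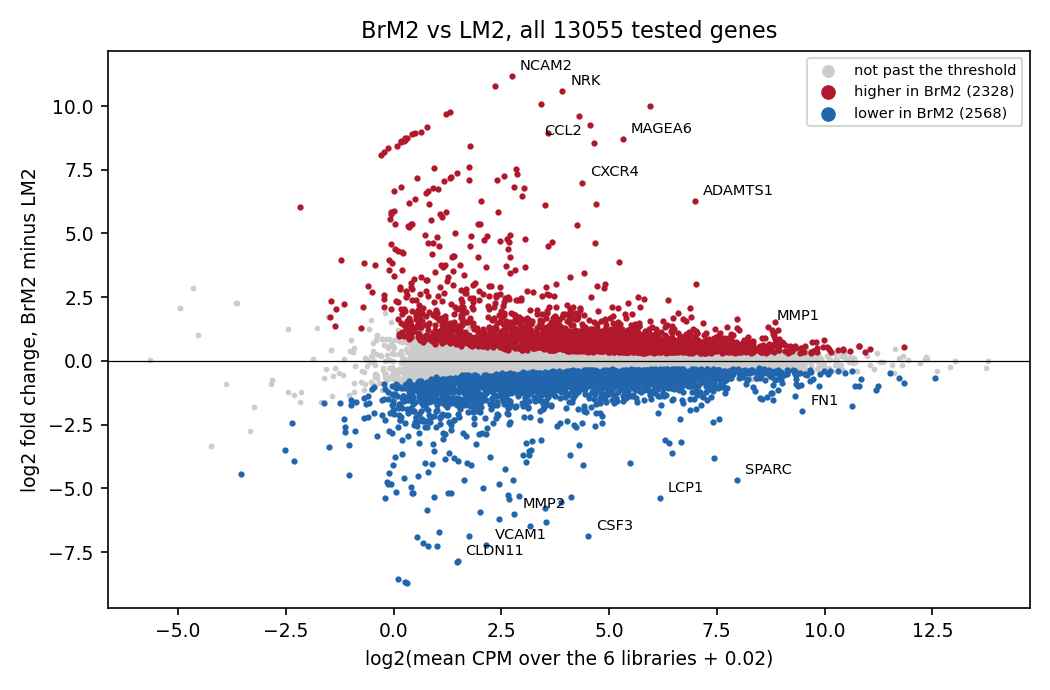
Log2 fold change of BrM2 minus LM2 (vertical axis) against the log2 of the mean CPM over the 6 libraries plus 0.02 (horizontal axis) for 13055 tested genes, with 2328 genes higher in BrM2 in red, 2568 lower in blue and the others in grey. The largest estimates, such as those of NCAM2 and NRK, belong to genes with almost no counts in 1 of the lines and depend there on the prior count of the fit. ADAMTS1, SPARC, LCP1 and FN1 differ at high expression.

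At the extreme were genes that were read in one line and hardly at all in the other. With a mean of at least 50 counts in BrM2 and no more than 3 counts in every LM2 library there were 34 genes, and 17 of them also had no more than 3 counts in every Par library. In the other direction there were 18 genes read in LM2 and nearly absent from BrM2, of which 5 were also nearly absent from Par. The remaining 17 and 13 genes had more than 3 counts in at least 1 Par library, in several cases only a few more. In 8 of the 34 genes LM2 had no count at all, and in 3 of the 18 genes BrM2 had none.

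Promoter sequences (250 bases before to 50 bases after the start, RefSeq on GRCh38.p14) were found for 22 of the 34 genes and 11 of the 18. For each gene only the first listed start was taken, and whether these cells use that start was not tested. The ratio of observed to expected CpG dinucleotides, a measure of how far a promoter resembles a CpG island, had a median of 0.64 over the first group and 0.33 over the second, against 0.84 over the 9910 tested genes with a promoter in the table. A ratio under 0.4 was found in 6 of 22 (27.3%), 7 of 11 (63.6%) and 9.57% of these promoters. The groups are small and their members also differ in expression level. The promoters of 2 genes read in BrM2 but not in LM2, and of 2 read in LM2 but hardly in BrM2, are shown to let this range be seen. CpG dinucleotides are in capitals and the strand is that of the gene.
NCAM2, chr21:21146912-21147211, plus strand, ratio 0.77: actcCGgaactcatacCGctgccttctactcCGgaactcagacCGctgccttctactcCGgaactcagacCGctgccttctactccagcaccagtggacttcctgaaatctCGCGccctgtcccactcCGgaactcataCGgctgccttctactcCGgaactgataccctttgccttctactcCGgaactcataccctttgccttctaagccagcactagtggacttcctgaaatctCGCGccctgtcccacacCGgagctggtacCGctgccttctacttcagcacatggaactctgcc
SLITRK1, chr13:83882425-83882724, minus strand, ratio 0.52: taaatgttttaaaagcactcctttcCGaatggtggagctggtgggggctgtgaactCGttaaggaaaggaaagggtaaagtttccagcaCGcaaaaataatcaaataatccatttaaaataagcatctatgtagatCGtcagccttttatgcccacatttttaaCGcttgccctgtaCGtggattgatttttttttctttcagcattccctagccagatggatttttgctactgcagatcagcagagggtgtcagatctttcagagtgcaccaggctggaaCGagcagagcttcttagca
VCAM1, chr1:100719492-100719791, plus strand, ratio 0.29: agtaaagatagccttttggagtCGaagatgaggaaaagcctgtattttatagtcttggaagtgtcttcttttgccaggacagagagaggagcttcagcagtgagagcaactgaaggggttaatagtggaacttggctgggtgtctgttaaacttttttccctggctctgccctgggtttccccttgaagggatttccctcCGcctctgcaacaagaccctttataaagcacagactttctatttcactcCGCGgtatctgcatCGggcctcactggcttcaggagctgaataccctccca
CLDN11, chr3:170418618-170418917, plus strand, ratio 0.93: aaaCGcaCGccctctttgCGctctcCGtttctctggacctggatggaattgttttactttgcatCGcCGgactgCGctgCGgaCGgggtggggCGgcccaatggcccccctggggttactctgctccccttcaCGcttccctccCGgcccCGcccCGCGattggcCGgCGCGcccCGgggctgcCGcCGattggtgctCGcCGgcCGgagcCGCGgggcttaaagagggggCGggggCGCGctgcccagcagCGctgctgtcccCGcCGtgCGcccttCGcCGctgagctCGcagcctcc
The VCAM1 window held 5 CpG dinucleotides and the CLDN11 window 36, although both genes were nearly absent from BrM2 and read in LM2. The windows of NCAM2 and SLITRK1 held 16 and 7.

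Among the 15 largest rises in BrM2 were 4 genes of neural adhesion. All 4 passed the filter on low counts through BrM2 alone and had to differ, so their rank is not a finding. NCAM2, a neural cell adhesion molecule, was read at 5.91, 17.9 and 16.2 CPM in the BrM2 replicates and had no count in LM2, which makes it at least 103-fold higher. SLITRK1, a neuronal transmembrane protein that promotes neurite growth, was at 8.42, 10.5 and 11.9 CPM in BrM2 with no count in LM2 or Par (at least 79.6-fold higher than in LM2). A fold of this kind is the mean CPM of one line over the CPM of 3 counts per library in the other. NRXN3, a presynaptic neurexin, had 320 counts summed over BrM2 and 2 over LM2, a ratio of 198 (95% exact interval 54.5 to 1640, for counting error only). DSCAM, an immunoglobulin-type receptor of neurons, had 383 and 2 counts and a ratio of 237 (65.3 to 1970). NCAM2 was lower in BrM2 replicate 1 than in the other replicates.

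Other genes of the same rank had different roles, and several of them, such as NRK and COX7B2, also passed the filter through BrM2 alone. CCL2, the chemokine that attracts monocytes, was at 42.1, 57.1 and 51.1 CPM in BrM2 against 3 counts in each LM2 library (ratio 403, 212 to 883). NRK, a kinase of the germinal center kinase family, had 1856 counts in BrM2 and 1 in LM2. DAPK1, a death-associated protein kinase, had 780 and 5 counts (ratio 193, 82.5 to 597). CCBE1, a secreted factor of lymphatic vessel growth, was read at 44.4, 48.5 and 48.1 CPM in BrM2, at most 0.153 CPM in LM2 and 16.7 to 19.5 CPM in Par, so that it fell far in LM2 rather than being absent before selection. COX7B2, a cytochrome oxidase subunit known from testis, had 1351 and 3 counts (ratio 558, 191 to 2710). MAGEA6, a cancer-testis antigen, was at 78, 77.2 and 83.6 CPM in BrM2 and 0.0994, 0.245 and 0.192 CPM in LM2, but 61.6% of its 50-base stretches occur in another gene and its reads may include those of its paralogs. The same uncertainty holds for the alpha-tubulin gene TUBA3C (16.9% shared) and, to a smaller extent, for TMLHE (8.42%), an enzyme of carnitine synthesis that also overlaps exons of SPRY3 on the opposite strand. It holds also for LINC02582 (14.3%) and, among the falls described below, for CLDN11 (14.8%). Among the rises were also 3 long noncoding RNAs, LINC02864, LINC02582 and LINC00648, of which LINC02582 had the highest level at 109.2, 115.3 and 145.4 CPM in BrM2 against at most 0.348 CPM in LM2.

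The 15 largest falls held genes of matrix, vessel adhesion and signaling, and also neural ones such as the synaptic SYNDIG1 and the myelin claudin CLDN11. COL1A2, a chain of type I collagen, was at 6.41, 4.77 and 5.48 CPM in LM2 with 1 count over the 3 BrM2 libraries (LM2 over BrM2 ratio 314, 56 to 12400), and at 22.4 to 32.8 CPM in Par. CLDN11, a claudin of myelin and testis, was at 6.31, 5.39 and 4.67 CPM in LM2, also with 1 count in BrM2. VCAM1, which binds integrins of leukocytes, was at 9.39, 9.92 and 7.09 CPM in LM2 with 3 counts over BrM2 (ratio 166, 56.5 to 807). CSF3, the granulocyte colony-stimulating factor, was at 63.5, 38.35 and 32.7 CPM in LM2 and 0.812, 0.0883 and 0.336 CPM in BrM2 (log2 fold change -6.88 ± 0.35, adjusted p = 3.8e-07). MMP2, a gelatinase, was at 19.4, 11.5 and 10.0 CPM in LM2 and at most 0.369 CPM in BrM2 (-6.02 ± 0.41, adjusted p = 2.5e-06). LM2 replicate 1 was the highest of the 3 for CSF3 and MMP2. Absence of overlap between the lines was a condition for choosing these genes.

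LCP1, the actin-bundling protein L-plastin, was the most strongly read of the falls, with 139.8, 135.7 and 147 CPM in LM2 and 3.77, 3.22 and 3.26 CPM in BrM2 (-5.37 ± 0.22, adjusted p = 9.2e-08). Par was at 1.26 to 3.18 CPM, close to BrM2. SORCS2, a sortilin-type receptor, showed the other arrangement, with 20.8 to 50.9 CPM in LM2, 43.4 to 66.7 CPM in Par and 0.527 to 1.48 CPM in BrM2 (-5.34 ± 0.23, adjusted p = 9.8e-08). LGR6, a receptor for R-spondins, NLRP2, an inflammasome protein, and SYNDIG1, a synaptic transmembrane protein, fell with log2 fold changes between -5.44 and -6.33. KCTD15 had 554 counts in LM2 and 7 in BrM2 (ratio 63.8, 30.8 to 160). The rest were SLC13A4, a sulfate transporter with exons overlapping STMP1 on the opposite strand, MAGEB2, LINC01234 and an unnamed gene (ENSG00000277011) that overlaps GALNT9 on the opposite strand.

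**Figure D2:**
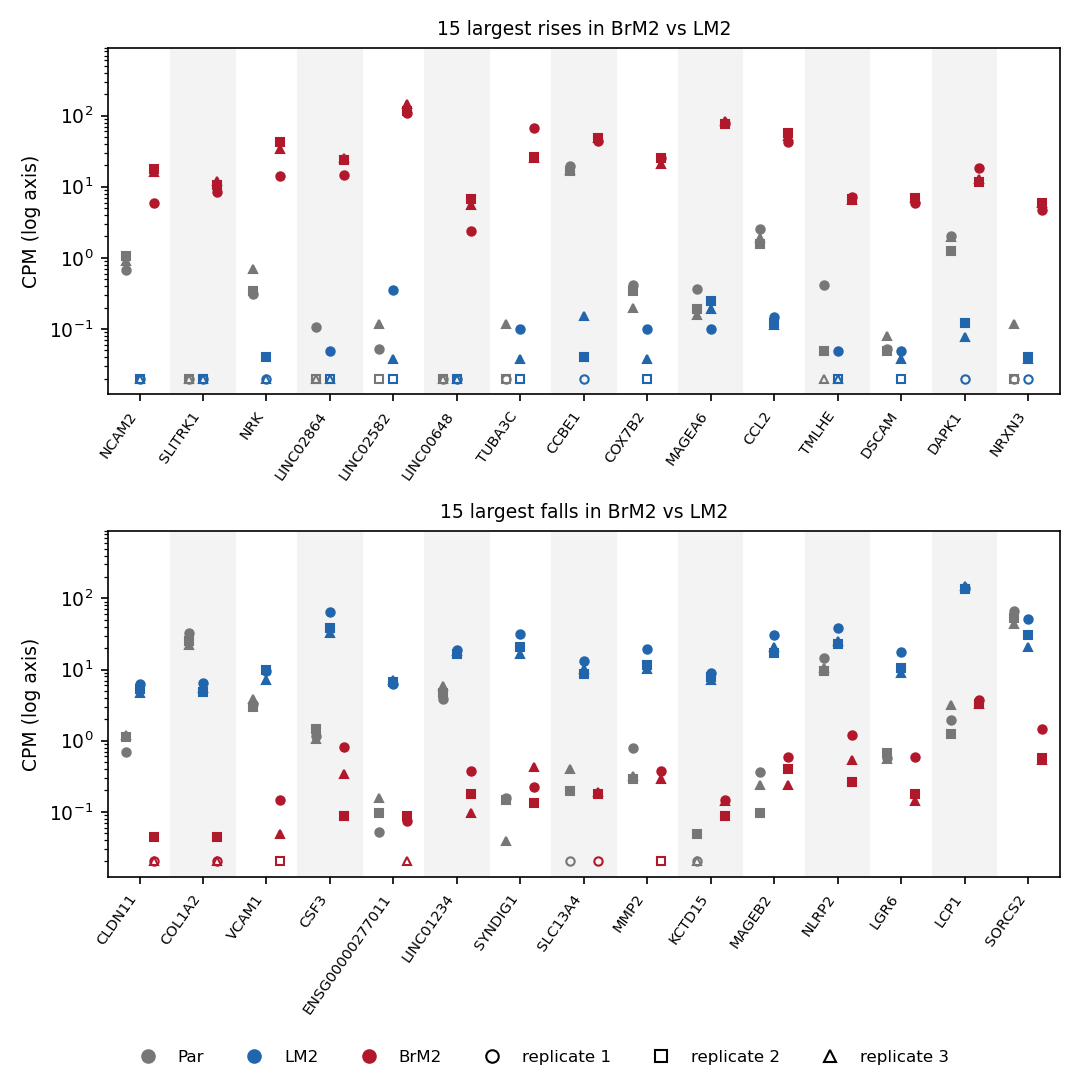
CPM on a log axis in each library for the 15 largest rises (upper panel) and 15 largest falls (lower panel) in BrM2 vs LM2, with Par in grey, LM2 in blue, BrM2 in red and 1 symbol per replicate number. Open symbols mark libraries without a count and are drawn at 0.02. Genes were chosen for no overlap between BrM2 and LM2. Par lies with LM2 for SLITRK1, between the metastatic lines for CCBE1 and CCL2, and above LM2 for COL1A2.

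Genes that moved in opposite directions from the parental line were identified from BrM2 vs Par (5577 genes past the threshold, 42.7%) and LM2 vs Par (4510 genes, 34.5%). Both comparisons use the same 3 Par libraries. Higher in BrM2 and lower in LM2 than in Par were 145 genes (1.11% of those tested), and lower in BrM2 and higher in LM2 were 134 (1.03%). All of these also passed in BrM2 vs LM2, which their opposite changes from Par made nearly certain. Both arms exceeded 2-fold for 45 and 29 of them. Most differences between the metastatic lines were of another kind: of the 2328 higher genes, 913 passed only in BrM2 vs Par and 539 only in LM2 vs Par, and of the 2568 lower genes 982 and 566 did so. Without the block, 30 and 12 genes remained in opposite directions, and without replicate 1 there were 94 and 75. The counts were 46 and 27 without replicate 3, 62 and 49 without Par replicate 3, 74 and 58 without LM2 replicate 2, 78 and 78 without LM2 replicate 3, 91 and 80 without BrM2 replicate 3, 115 and 88 without LM2 replicate 1, and 237 and 252 without BrM2 replicate 2. With the GC correction they were 264 and 292.

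In the first direction CXCR4, the receptor of the chemokine CXCL12, was at 48.5, 39.6 and 34.7 CPM in BrM2, 5.62, 2.95 and 3.5 CPM in Par and 0.248, 0.367 and 0.306 CPM in LM2. It thus rose by 3.37 ± 0.19 on the log2 scale from Par to BrM2 (adjusted p = 4.2e-07) and its log2 fold change from Par to LM2 was -3.62 ± 0.27 (adjusted p = 4.6e-06). CCL2 was at 1.55 to 2.57 CPM in Par, between 42.1 and 57.1 CPM in BrM2 and 0.149 CPM or less in LM2. SLAMF7, a receptor of the SLAM family best known from lymphocytes and plasma cells, was at 51.5, 55.8 and 47.1 CPM in BrM2, 9.68 to 11.8 CPM in Par and 0.447 to 0.958 CPM in LM2 (BrM2 vs LM2 6.14 ± 0.23, adjusted p = 5.5e-08). NCAM2, NRK, DAPK1, COX7B2 and ZNF300, a zinc finger protein, completed the 8 genes with the largest movement in both directions. ZNF300 was uneven among the BrM2 replicates, with 2.88, 16.9 and 11.4 CPM against 0.158 to 0.532 CPM in Par.

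In the second direction SHH, the Sonic hedgehog ligand, was at 12.8, 16.5 and 17.9 CPM in LM2, 4.31, 5.47 and 4.48 CPM in Par and 1.33, 0.839 and 0.911 CPM in BrM2. Its log2 fold change was -3.98 ± 0.24 between BrM2 and LM2 (adjusted p = 1.2e-06). RGS4, which shortens G protein signaling, was at 27.3 to 44.7 CPM in LM2, 11.7 to 13.3 CPM in Par and 2.88 to 4.13 CPM in BrM2. VCAM1 was at 2.95 to 3.89 CPM in Par, above BrM2 and below LM2. CSF3 differed most from Par in LM2 (5.13 ± 0.30, adjusted p = 6.7e-07) and less in BrM2 (-1.76 ± 0.45, adjusted p = 0.0094). LZTS1, a leucine zipper protein, VAV1, a signaling protein of blood cells, LINC01234 and an unnamed gene (ENSG00000253414) were the others. BrM2, Par and LM2 did not overlap for 7 of these 8 genes, the exception being ENSG00000253414, for which the Par and LM2 libraries overlapped. The genes were chosen for large changes from Par in both lines, so this separation was largely built in.

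**Figure D3:**
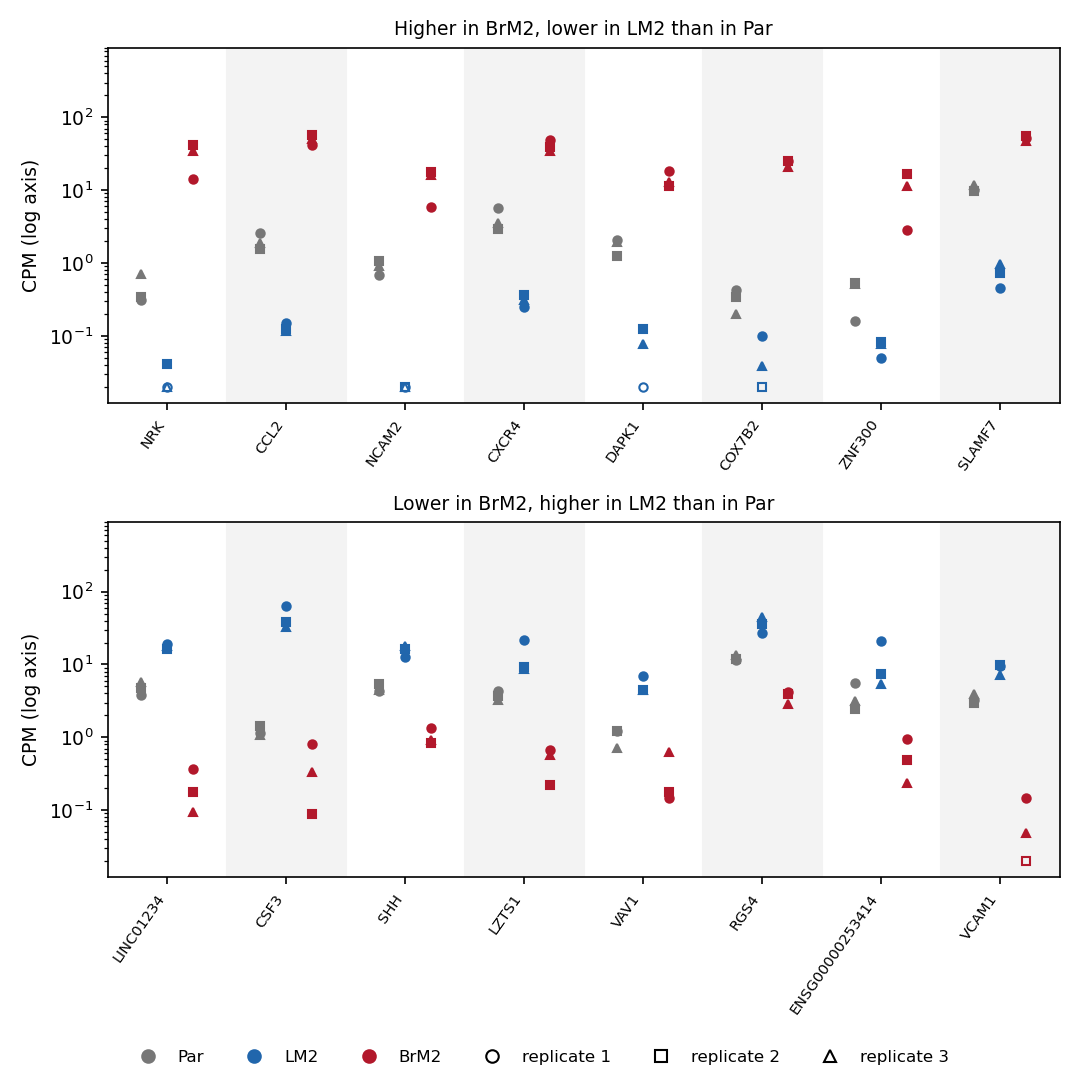
CPM on a log axis in each library for the 8 genes that were higher in BrM2 and lower in LM2 than in Par (upper panel) and the 8 that were lower in BrM2 and higher in LM2 (lower panel), with colors and symbols by line and replicate number and open symbols at 0.02 for libraries without a count. Genes were chosen for the size of both changes from Par. The Par libraries lie between those of the metastatic lines for every gene but ENSG00000253414, where they overlap LM2.

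Genes described earlier for lung colonization by this lineage lay on both sides. Of 20 such genes, 5 rose and 9 fell in BrM2, where 17.8% and 19.7% of all tested genes did so (median log2 fold change -0.28, against -0.017 over all tested genes). These shares, and the 8.1% of tested genes called without the block, stand beside the counts of every list below. The list came from work on these lines and is not independent evidence of its direction. SPARC, a secreted matrix protein, was at 652.7, 422.6 and 366.2 CPM in LM2 and 32, 13.7 and 12.8 CPM in BrM2 (-4.69 ± 0.22, adjusted p = 1.7e-07), and at 2 to 2.32 CPM in Par. It was therefore higher than in Par in both metastatic lines and much higher in LM2. VCAM1 and MMP2 were the other members with the largest falls, and the ligands ANGPTL4 (-1.84 ± 0.21, adjusted p = 0.0001) and EREG (-1.44 ± 0.19, adjusted p = 0.00023) fell less. MMP1, the interstitial collagenase, went the other way, with 438.6, 756.9 and 583.7 CPM in BrM2 and 189.5, 226.3 and 273.8 CPM in LM2 (1.35 ± 0.20, adjusted p = 0.00056), both far above the 1.93 to 3.57 CPM of Par. NEDD9, a docking protein of focal adhesions, also rose (1.85 ± 0.19, adjusted p = 3.8e-05). IL13RA2, the decoy receptor of IL-13, had no count in Par and 38 to 145 counts in BrM2 and 95 to 346 in LM2. Its fall (-1.13 ± 0.20, adjusted p = 0.0027) was lost without the block (adjusted p = 0.24), where the libraries of the 2 lines overlapped. The counts of this list were 2 and 6 without the block and 5 and 8 without replicate 1.

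Genes described for brain colonization did not lie on one side. Of 21 tested, 8 rose and 6 fell (median -0.11; 3 and 6 without the block, 8 and 6 without replicate 1), and this list too came from work on these lines. SERPINB2, an inhibitor of plasminogen activators, was at 6.94, 6.71 and 3.21 CPM in BrM2 and 1.09, 0.612 and 0.613 CPM in LM2 (2.84 ± 0.40, adjusted p = 0.00037). ST6GALNAC5, a sialyltransferase otherwise found mainly in brain, was at 9.08, 12.8 and 10.7 CPM in BrM2, 2.29, 3.35 and 3.72 CPM in LM2 and 0.473 to 1.94 CPM in Par (1.82 ± 0.25, adjusted p = 0.00033). SERPINI1, the neuronal serpin, rose by 1.77 ± 0.32 on the log2 scale (adjusted p = 0.0017), a call that was lost without the block (adjusted p = 0.16). CSF3, LAMA4 and ANGPTL4, although on the brain list, were lower in BrM2 than in LM2. LAMA4, a laminin chain of vessels, was at 31.3, 58.9 and 55.2 CPM in LM2 and 6.5, 9.84 and 9.97 CPM in BrM2 (-2.45 ± 0.15, adjusted p = 1.1e-06). SCNN1A, a sodium channel subunit whose exons overlap LTBR on the opposite strand, fell as well, and both metastatic lines were below its 54.9 to 57.8 CPM in Par. COL13A1 (-0.27 ± 0.15, adjusted p = 0.18), FSCN1 (0.68 ± 0.27, adjusted p = 0.066) and LTBP1 (-0.29 ± 0.12, adjusted p = 0.085) did not pass.

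Neural adhesion was divided between the lines rather than uniformly higher in BrM2. Of 18 tested immunoglobulin-type and synaptic adhesion genes, 7 rose and 4 fell (median 0.03; 4 and 1 without the block, 5 and 4 without replicate 1). Beside NCAM2, SLITRK1 and NRXN3, the contactin CNTN5 rose, with 3.91, 7.59 and 8.15 CPM in BrM2 and at most 0.421 CPM in LM2 (4.51 ± 0.31, adjusted p = 1.3e-05). The neuroligin NLGN3 fell (-2.44 ± 0.43, adjusted p = 0.0015). NCAM2, SLITRK1 and NRXN3 passed the filter on low counts through BrM2 alone and had to differ. The size of these rises beside the falls is therefore not a finding, and the median of the list was near that of all genes.

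Of 18 tested cadherins 3 were higher and 6 lower (3 and 2 without the block, 3 and 3 without replicate 1). The atypical cadherin FAT3 was at 67.8, 72.8 and 69.7 CPM in BrM2 and 4.62, 4.98 and 4.75 CPM in LM2 (3.87 ± 0.16, adjusted p = 9.5e-08). CDH18 was at 8.19 to 12.7 CPM in BrM2 and 0.306 CPM or less in LM2, and the mesenchymal cadherin CDH11 rose by 2.07 ± 0.13 on the log2 scale (adjusted p = 1.5e-06). P-cadherin (CDH3, -3.22 ± 0.43, adjusted p = 0.00024) and the protocadherin PCDH7 (-1.59 ± 0.15, adjusted p = 2.9e-05) fell, and PCDH7 was also a member of the brain list.

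Among axon guidance genes 13 of 41 rose and 10 fell (4 and 2 without the block, 9 and 9 without replicate 1). With the GC correction 13 rose and 16 fell. The SLIT receptor ROBO2 was at 4.06, 9.05 and 11.6 CPM in BrM2 and 0.0994, 0.49 and 0.306 CPM in LM2 (4.75 ± 0.35, adjusted p = 4.5e-06). Neogenin (NEO1) was at 82.8, 85.2 and 87.7 CPM in BrM2 and 21.9, 17.3 and 19.5 CPM in LM2 (2.13 ± 0.13, adjusted p = 1e-06), with Par at the level of LM2. The plexins PLXNB1 (-1.37 ± 0.23, adjusted p = 0.0012) and PLXNA4 (-1.07 ± 0.19, adjusted p = 0.0015) fell.

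Genes of the synaptic vesicle and the active zone numbered 6 higher and 6 lower of 21 (3 and 1 without the block, 5 and 3 without replicate 1). The SNARE protein SNAP25 fell from 3.38, 7.55 and 7.24 CPM in LM2 to 0.369, 0.397 and 0.383 CPM in BrM2 (-4.0 ± 0.31, adjusted p = 6.6e-06). The active zone protein ERC2 (1.95 ± 0.35, adjusted p = 0.0015) and the synaptotagmin SYT11 (1.88 ± 0.32, adjusted p = 0.0012) rose at levels of 1.33 to 2.83 CPM in BrM2. Of the glutamate and GABA receptor genes only 6 of 41 were tested, of which 4 rose and 2 fell (3 and 1 without the block, 4 and 2 without replicate 1). The GABA-A subunit GABRA3 had 844 counts in BrM2 and 6 in LM2 (ratio 174, 79.8 to 477). It passed the filter on low counts through BrM2 alone and had to differ. Both GABA-B subunits rose (GABBR1 1.78 ± 0.15, GABBR2 1.48 ± 0.21). The kainate receptor subunit GRIK4 fell (-2.33 ± 0.16, adjusted p = 3.3e-06).

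**Figure D4:**
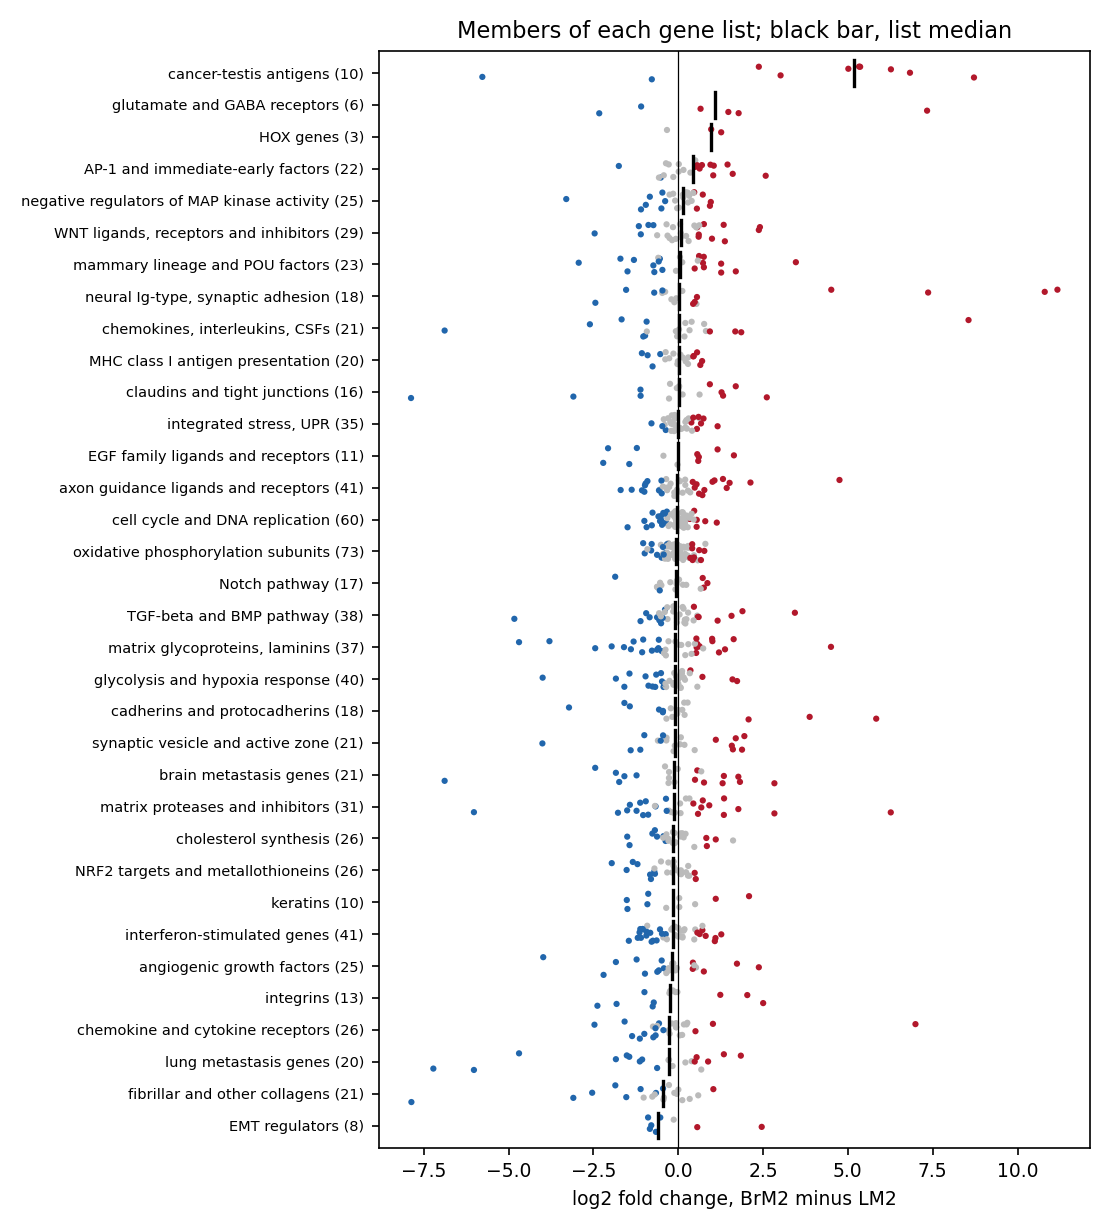
Log2 fold change of BrM2 minus LM2 for each tested member of 34 gene lists, with the number tested in parentheses, members past the threshold in red (higher in BrM2) or blue (lower), others in grey, and the list median as a black bar. Most lists have members on both sides of 0, and the median of the cancer-testis antigens, 5.17, includes members that passed the filter through BrM2 alone.

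Several structural matrix genes were lower in BrM2. Of 21 tested collagens 1 rose and 8 fell (median -0.45; 1 and 6 without the block, 1 and 7 without replicate 1), against 17.8% and 19.7% of all tested genes. With the GC correction 2 rose and 13 fell (median -0.69). COL7A1, the collagen of anchoring fibrils, was at 130.3, 165.1 and 128.6 CPM in LM2 and 17.9, 13.3 and 17.9 CPM in BrM2 (-3.09 ± 0.21, adjusted p = 2.5e-06). COL1A1 fell with its partner chain COL1A2 (-2.54 ± 0.23, adjusted p = 1.9e-05), but in Par COL1A1 was at 4.83 to 7.93 CPM, near BrM2, while COL1A2 was higher in Par than in LM2. COL8A1 rose (1.04 ± 0.12, adjusted p = 8.2e-05).

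Of 37 matrix glycoproteins and laminins, 11 rose and 14 fell (median -0.08; 5 and 9 without the block, 9 and 12 without replicate 1), and the median was -0.26 with the GC correction. Fibronectin (FN1) was at 1120, 1121 and 1153 CPM in LM2 and 307.8, 287.9 and 274.7 CPM in BrM2 (-1.96 ± 0.13, adjusted p = 2e-06), and TGFBI, a TGF-beta induced matrix protein, fell from 252.8 to 428.5 CPM in LM2 to 20.8 to 27.5 CPM in BrM2 (-3.79 ± 0.15, adjusted p = 7e-08). Par was closer to LM2 than to BrM2 for both, at 799.7 to 1047 CPM for FN1 and 165.7 to 209.7 CPM for TGFBI. The antiangiogenic glycoprotein THBS2 went the other way, with 26.1, 22.3 and 20.9 CPM in BrM2 and 0.944, 1.06 and 1.03 CPM in LM2 (4.50 ± 0.23, adjusted p = 3.4e-07). CCN3 (1.38 ± 0.16, adjusted p = 9e-05) and the laminin chain LAMB3 (1.20 ± 0.17, adjusted p = 0.00034) also rose.

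Among 13 tested integrins 3 rose and 5 fell (2 and 1 without the block, 3 and 4 without replicate 1). The leukocyte integrin ITGB2 was at 58.2, 25.1 and 38.1 CPM in BrM2 and 12, 5.47 and 4.52 CPM in LM2 (2.50 ± 0.28, adjusted p = 7.9e-05), although ITGB2-AS1 overlaps it on the opposite strand. The collagen-binding ITGA10 rose (2.04 ± 0.20, adjusted p = 3.3e-05) and the hemidesmosome integrin ITGB4 fell from 224.8 to 357.9 CPM in LM2 to 29.7 to 92.1 CPM in BrM2 (-2.38 ± 0.28, adjusted p = 0.00011). ITGB1 did not pass (-0.26 ± 0.12, adjusted p = 0.12).

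Secreted proteases and inhibitors were likewise split, with 10 of 31 higher and 12 lower (4 and 5 without the block, 9 and 9 without replicate 1). ADAMTS1, a metalloprotease that cleaves proteoglycans, was at 177.1, 314.4 and 259.6 CPM in BrM2 and 2.58, 3.55 and 3.49 CPM in LM2 (6.26 ± 0.16, adjusted p = 6.5e-09), and at 5.1 to 7.21 CPM in Par. ADAMTS12 rose by 1.35 ± 0.12 on the log2 scale (adjusted p = 1.5e-05). The lysosomal cathepsins CTSB (-1.42 ± 0.16, adjusted p = 7.7e-05) and CTSK (-1.50 ± 0.26, adjusted p = 0.0012) fell together with MMP2. The metalloproteases therefore held both one of the largest rises (ADAMTS1) and one of the largest falls (MMP2).

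Cytokines differed in kind more than in number. Of 21 tested chemokines, interleukins and colony-stimulating factors 4 rose and 6 fell (median 0.03; 2 and 3 without the block, 4 and 4 without replicate 1). IL1B, an inflammatory interleukin, was at 39.4, 33.3 and 24.3 CPM in LM2, 7.31, 5.61 and 3.35 CPM in BrM2 and 0.242 to 0.55 CPM in Par (-2.60 ± 0.23, adjusted p = 1.7e-05). IL24 rose (1.68 ± 0.30, adjusted p = 0.0015), with exons of FCMR on the opposite strand. CXCL8, which attracts neutrophils, rose by 1.86 ± 0.43 on the log2 scale (adjusted p = 0.0067), a call lost without the block (adjusted p = 0.079). The largest cytokine difference in favor of BrM2 was that of the monocyte attractant CCL2, and the largest in favor of LM2 that of the neutrophil growth factor CSF3. Of 26 receptors 3 rose and 10 fell (median -0.27; 1 and 4 without the block, 3 and 7 without replicate 1). CXCR4 was the receptor with the largest rise, and CCR1 fell at low levels (1.46 to 3.02 CPM in LM2, 0.192 to 0.618 CPM in BrM2).

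Angiogenic and endothelial migration genes counted 5 higher and 9 lower of 25 (3 and 4 without the block, 4 and 7 without replicate 1). SHH, PDGFB (-2.20 ± 0.29, adjusted p = 0.00025) and EMP2, a tetraspan membrane protein (-1.23 ± 0.11, adjusted p = 2.2e-05), fell. WNT5A, a non-canonical WNT ligand (2.38 ± 0.28, adjusted p = 0.00011), and FGF5 (1.73 ± 0.15, adjusted p = 1.2e-05) rose. For EMP2, LM2 was at 64.8 to 90.4 CPM and BrM2 at 27.6 to 40.7 CPM.

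EGF family genes moved in both directions. Of 11 tested members 5 rose and 4 fell (1 and 4 without the block, 4 and 4 without replicate 1), and the 4 that fell were the ligands EGF (-2.07 ± 0.24, adjusted p = 9e-05), TGFA (-1.22 ± 0.11, adjusted p = 1.5e-05), EREG and BTC. NRG1, a ligand of ERBB3 and ERBB4, was at 147.9, 168 and 158.8 CPM in BrM2 and 48.5, 44.8 and 59.6 CPM in LM2 (1.64 ± 0.15, adjusted p = 1.9e-05). NRG2 rose as well (1.16 ± 0.29, adjusted p = 0.0091; 0.3 without the block). EGFR itself rose by 0.61 ± 0.12 on the log2 scale (adjusted p = 0.003), which was lost without the block (adjusted p = 0.13).

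Feedback inhibitors of MAP kinase signaling had 5 higher and 7 lower of 25 (3 and 2 without the block, 7 and 5 without replicate 1). The ERK phosphatases DUSP6 (0.94 ± 0.14, adjusted p = 0.00044) and DUSP7 (0.96 ± 0.13, adjusted p = 0.00026) rose while RGS4 and DUSP10 (-0.84 ± 0.13, adjusted p = 0.00079) fell. AP-1 and other immediate-early factors counted 10 of 22 higher and 2 lower (median 0.43), but only 1 and 0 without the block and 8 and 1 without replicate 1. JUNB was the member that passed without the block, at 16.7, 3.31 and 6.85 CPM in BrM2 and 1.84, 1.22 and 1.03 CPM in LM2 (2.58 ± 0.43, adjusted p = 0.001), with HOOK2 on the opposite strand. JUN itself did not pass (0.36 ± 0.24, adjusted p = 0.27).

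WNT pathway genes counted 9 higher and 5 lower of 29 (4 and 2 without the block, 5 and 5 without replicate 1). DKK1, a secreted WNT inhibitor, was at 313, 296.4 and 300.6 CPM in BrM2 and 125.8, 114.6 and 119.2 CPM in LM2 (1.34 ± 0.11, adjusted p = 8e-06), with PRKG1-AS1 on the opposite strand. The WNT5A receptor ROR1 rose together with its ligand (1.38 ± 0.15, adjusted p = 8.2e-05), and WNT9A (-2.46 ± 0.27, adjusted p = 7.1e-05) and the canonical target AXIN2 (-1.16 ± 0.20, adjusted p = 0.0012) fell.

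In the TGF-beta and BMP pathway 7 of 38 rose and 11 fell (2 and 1 without the block, 4 and 5 without replicate 1). Over all tested genes 17.8% rose and 19.7% fell. The called share was 47.4%, and 29.4% for the Notch list below, against 37.5% of all tested genes. INHBB, an activin subunit, was at 46.4, 26.3 and 44.7 CPM in BrM2 and 4.77, 3.55 and 2.49 CPM in LM2 (3.44 ± 0.30, adjusted p = 1.5e-05). FST, the activin-binding protein follistatin, rose too (147, 158.6 and 150.5 CPM against 44.1, 41.1 and 37.4 CPM; 1.89 ± 0.15, adjusted p = 6.2e-06). GDF5, a BMP-type ligand, had 121 counts in LM2 and 3 in BrM2 (ratio 32.5, 10.9 to 160). Notch pathway genes counted 3 higher and 2 lower of 17 (1 and 1 without the block, 2 and 1 without replicate 1, 3 and 4 with the GC correction), among them the ligand JAG1 (0.76 ± 0.11, adjusted p = 0.00042) and the Fringe enzyme MFNG (-1.86 ± 0.29, adjusted p = 0.00071).

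Interferon-stimulated genes were lower in BrM2 more often than higher, with 15 of 41 lower and 7 higher (median -0.16). With replicate 1 left out 13 and 4 passed, but without the block the counts were 1 and 0. HERC6, an interferon-induced ubiquitin ligase, was the member that passed in all of these, at 5.39, 8.65 and 8.29 CPM in BrM2 and 13.7, 18.4 and 17.2 CPM in LM2 (-1.14 ± 0.17, adjusted p = 0.00051). MHC class I genes counted 5 higher and 4 lower of 20 (1 and 0 without the block, 5 and 3 without replicate 1, 6 and 6 with the GC correction). The peptide transporter subunit TAP2 rose (0.70 ± 0.14, adjusted p = 0.0024), and B2M, the common light chain, fell by 0.53 ± 0.11 on the log2 scale (adjusted p = 0.0042; 0.086 without the block).

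Epithelial and mesenchymal genes differed in both directions. Of 10 tested keratins 2 rose and 4 fell (1 and 1 without the block, 1 and 3 without replicate 1). Luminal KRT19 was at 283.6, 104.3 and 185.3 CPM in BrM2, 72.9, 34.6 and 29.1 CPM in LM2 and 169 to 252 CPM in Par (2.09 ± 0.22, adjusted p = 5.7e-05), while KRT7 fell (-1.50 ± 0.13, adjusted p = 1.2e-05; KRT7-AS on the opposite strand). Of 8 tested EMT regulators 2 rose and 5 fell (median -0.59; 1 and 0 without the block, 2 and 2 without replicate 1). The epithelial splicing factor ESRP2 was at 14.6, 11.1 and 13.6 CPM in BrM2 and 2.68, 1.96 and 2.49 CPM in LM2 (2.46 ± 0.18, adjusted p = 4.5e-06), with NFATC3 on the opposite strand. SNAI2, a repressor of epithelial genes, fell by 0.89 ± 0.14 on the log2 scale (adjusted p = 0.00068; 0.053 without the block).

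Of 16 tight junction genes 5 rose and 4 fell (3 and 2 without the block, 5 and 4 without replicate 1). CLDN1 was at 6.35, 11.3 and 10.7 CPM in BrM2 and 1.64, 1.47 and 1.46 CPM in LM2 (2.61 ± 0.23, adjusted p = 1.6e-05), and CLDN4 rose by 1.70 ± 0.28 on the log2 scale, with the scaffold protein cingulin (CGN) also among the rises. CLDN11 and CLDN23 fell, the latter with 69.6% of its 50-base stretches shared with another gene. Mammary lineage and POU factors counted 9 higher and 9 lower of 23 (3 and 2 without the block, 6 and 8 without replicate 1). The luminal factor SPDEF was at 22.1, 4.94 and 8.48 CPM in BrM2 and 2.14, 0.653 and 0.421 CPM in LM2 (3.47 ± 0.43, adjusted p = 0.00015), with Par at 10.3 to 16.9 CPM. FOXA1 rose at low levels (1.33 to 2.64 CPM in BrM2, 0.53 to 0.646 CPM in LM2).

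Cancer-testis antigens are normally expressed in germ cells, and 10 of 36 were tested. A member read in only 1 of the lines passes the filter through that line and has to differ, so that neither the count (8 higher and 2 lower) nor the median (5.17) is a finding. SSX1, SPANXD and MAGEA3 rose with CPM of 7.05 or more in every BrM2 library and 0.397 or less in LM2. MAGEB2 was the opposite case, with 30.2, 16.9 and 20.6 CPM in LM2 and 0.591, 0.397 and 0.24 CPM in BrM2 (-5.77 ± 0.25, adjusted p = 1.1e-07). Counts of SPANXD, MAGEA3 and SSX1 are uncertain, since 22.9%, 51.9% and 11.6% of their 50-base stretches occur in another gene. Named genes of other lists with this limit include AXIN2 (24.5%), TAP2 (18.5%), SERPINB2 (18.3%), KRT18 (16.2%) and KRT8 (10.1%).

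Metabolic, proliferation and stress genes were split as well. Of 40 glycolysis and hypoxia genes 4 rose and 13 fell (median -0.1; 2 and 4 without the block, 3 and 9 without replicate 1). Hexokinase 2 (HK2) was at 158.8, 184.6 and 206.8 CPM in BrM2 and 47.4, 58 and 59.8 CPM in LM2 (1.74 ± 0.11, adjusted p = 1.5e-06). The hypoxia-induced carbonic anhydrases CA12 (-1.44 ± 0.16, adjusted p = 8.5e-05) and CA9 (-3.99 ± 0.45, adjusted p = 7.9e-05, with ARHGEF39 on the opposite strand) fell. Oxidative phosphorylation counted 8 higher and 10 lower of 73 (7 and 7 without replicate 1, 11 and 16 with the GC correction). Cholesterol synthesis counted 3 and 7 of 26 (1 and 5, 4 and 5), and cell cycle and DNA replication 6 and 14 of 60 (7 and 9, 10 and 15). Called members were 24.7%, 38.5% and 33.3% of these lists, against 37.5% of all tested genes, and at most 1 member of each passed without the block. CENPF, a kinetochore protein, fell by 1.49 ± 0.19 on the log2 scale (adjusted p = 0.00022), but its CPM of 50.7, 363.5 and 198.7 in BrM2 and 155.4, 702.6 and 781.2 in LM2 overlapped because replicate 1 was low in both lines. Stress response genes counted 7 higher and 3 lower of 35 (2 and 1 without the block, 8 and 1 without replicate 1, 9 and 6 with the GC correction), among them the unfolded protein sensor ERN1 (1.16 ± 0.16, adjusted p = 0.00025). NRF2 targets and metallothioneins counted 2 higher and 8 lower of 26 (0 and 3 without the block, 3 and 4 without replicate 1, 4 and 12 with the GC correction), among them the drug exporter ABCC3 (-1.96 ± 0.15, adjusted p = 7.1e-06) and the quinone reductase NQO1 (-1.52 ± 0.21, adjusted p = 0.00034). For the glycolysis, stress and NRF2 lists the called share was 42.5%, 28.6% and 38.5%. Of the 39 HOX genes only 3 were tested, of which HOXB9 rose (1.27 ± 0.15, adjusted p = 0.00014).

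The differences were spread unevenly over the chromosomes. Of 512 tested genes on chromosome 9, 261 were lower in BrM2 (51%) and 26 higher, with a median log2 fold change of -0.47. On chromosome 13, 120 of 233 genes were lower (51.5%, median -0.47), and on chromosome 15, 149 of 403 (37%, median -0.25). In contrast, 90 of 184 genes on chromosome 18 were higher in BrM2 (48.9%, median 0.44). These medians barely changed without the block (-0.48, -0.47, -0.26 and 0.42) or without replicate 1 (-0.44, -0.43, -0.23 and 0.44). Against Par, the median of chromosome 9 was -0.38 in BrM2 and 0.11 in LM2, and that of chromosome 13 was 0.06 in BrM2 and 0.52 in LM2. For chromosome 15 the values were -0.02 and 0.24, and for chromosome 18 they were 0.33 and -0.09. BrM2 thus lay farther from Par on chromosomes 9 and 18, and LM2 on chromosomes 13 and 15. Without the block the calls on chromosomes 9, 13 and 15 were 47, 20 and 37 lower genes, and 27 genes were higher on chromosome 18. On chromosome X, 158 of 438 genes were lower (36.1%) and 63 higher, with a median of -0.21. Without the block 30 were lower and 33 higher there (median -0.22). Members named above from these chromosomes include LCP1 and SLITRK1 (13), DAPK1 (9), and CCBE1 and LINC02582 (18). Their changes were far larger than the medians of their chromosomes, and SLITRK1 and DAPK1 rose against the direction of those medians. Chromosome copy number was not measured here, and its part in these shifts was not tested.

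**Figure D5:**
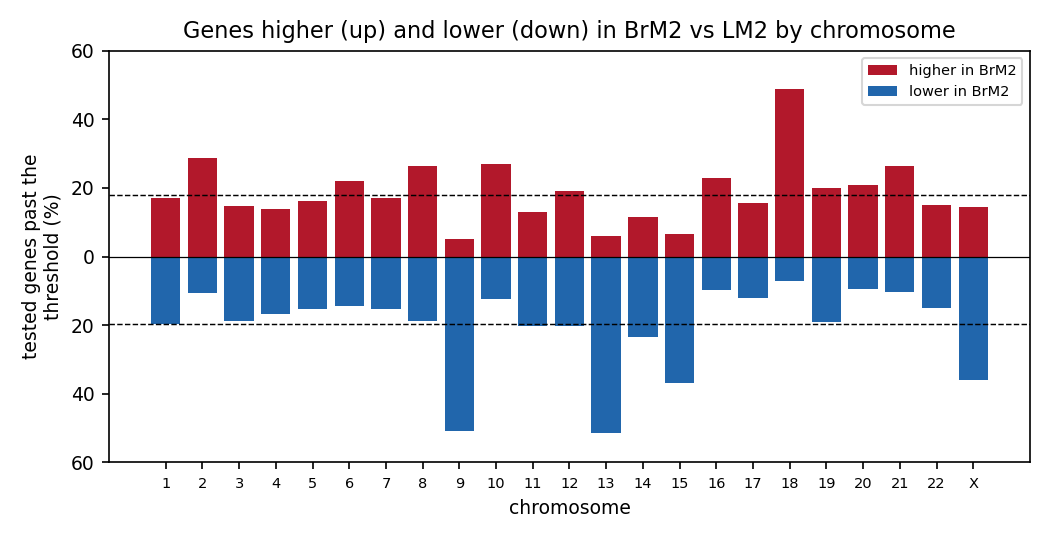
Percentage of the tested genes of each chromosome that were higher in BrM2 than in LM2 (red, upward) or lower (blue, downward), with the percentages over all tested genes, 17.8% and 19.7%, as dashed lines. Chromosomes 9 and 13 show 51% and 51.5% of genes lower in BrM2 and chromosome 18 shows 48.9% higher.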

How the data were processed

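The authors made stranded mRNA libraries from 3 harvests per line, aligned paired-end reads to hg38 with STAR 2.7.0 (version per the submitters' processing notes) and deposited the raw read count of each gene without normalization. The sources used here do not state which strand was counted, and a named gene is marked where its exons overlap an expressed gene on the opposite strand. A deposited table of the authors' DESeq2 fold changes and p-values was not used. Of 58887 rows, 3 repeated identifiers were kept once. A filter after HTSFilter (100 thresholds from 1 to 200, loess span 0.3) kept genes above 47.15 normalized counts in a library, 13055 in all. All 9 libraries were fitted in edgeR 4.0.16 (R 4.3.3, limma 3.58.1) with TMM factors, line and replicate number, and BrM2 minus LM2 was tested two-sided by quasi-likelihood. The labels number the replicates 1 to 3 in each line. Deviations from line means correlated at 0.23 to 0.90 in all 9 same-number pairs across lines. Pairs of different numbers were not compared. Replicate 1 stood apart in every line and deviations within a line cancel out, so the other numbers share an opposite deviation. Their correlations therefore cannot tell whether those numbers are paired across lines. Pairing by number was assumed, and the counts with the block rest on that assumption. CPM use TMM library sizes, and the depth of a library makes 3 counts worth 0.115 to 0.221 CPM. Intervals and floors cover counting error only. An exact permutation test of 3 against 3 cannot go below p = 0.1.

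The genes named were the 15 largest rises and falls with at least 50 mean counts and no overlap, the 8 genes per opposite direction with the largest smaller arm, and for each list up to 4 changed members per direction and up to 2 that did not pass, and members of the marker lists. Members and lists were chosen with earlier results of these data known. DESeq2 1.42.0 was an alternative, the fits were tested on simulated data, positions and promoters came from RefSeq on GRCh38.p14 by symbol (12692 tested genes), and shared sequence is the share of a gene's 50-base stretches found in another gene of a reference transcript set.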

Additional observations from a re-analysis of the deposited data

Results flagged for a closer look

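The change from Par differed in direction between BrM2 and LM2 for 2 groups of genes. Higher in BrM2 and lower in LM2 were 145 genes, and lower in BrM2 and higher in LM2 were 134. The difference itself passed the test of BrM2 vs LM2 for all of them. Significant changes of opposite sign from Par nearly fixed that outcome, so it adds no support. The 2 changes share the Par libraries. Among the 8 genes of the first direction, BrM2 over LM2 ratios of summed counts were 2300 for NRK (95% exact interval 412 to 90900), 403 for CCL2, 193 for DAPK1, 558 for COX7B2 and 164 for ZNF300, and NCAM2, without a count in LM2, was at least 103-fold higher. The log2 fold changes of CXCR4 and SLAMF7 were 6.99 and 6.14. Among the 8 genes of the second direction, log2 fold changes were -6.47 for LINC01234, -6.88 for CSF3, -3.98 for SHH, -4.68 for LZTS1, -3.93 for VAV1, -3.3 for RGS4 and -4.24 for ENSG00000253414, and the LM2 over BrM2 ratio of VCAM1 was 166. None of these 16 genes had libraries of BrM2 and LM2 that overlapped. Such separation held for 23.1% of all tested genes, and these 16 were chosen for large opposite changes from Par.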

How the results depend on the processing

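The count of 4896 genes between BrM2 and LM2 stayed within 1.5 times under relative log expression factors, no filter on low counts, filterByExpr, DESeq2 with the block, the 6 libraries alone and a GC correction with the block (4931, 5704, 5444, 4934, 5472 and 6391). Without the replicate block it was 1057 (536 higher, 521 lower), against a 2-fold change by glmTreat 587 (316, 271), and by DESeq2 without the block, which was chosen after seeing the data, 1824 (902, 922). The opposite directions, 279 genes in all, were 42 (30, 12), 19 (13, 6) and 92 (52, 40) in the same fits and 556 (264, 292) with the GC correction and the block. Leaving out 1 library or replicate number gave 2066 to 5668 genes (951 to 2712 higher, 1115 to 3098 lower) and 73 to 489 opposite ones (46 to 237, 27 to 252). The lowest values came without replicate 3 and the highest without BrM2 replicate 2, or for the higher genes without Par replicate 2. LM2 replicate 2 (2902), BrM2 replicate 3 (2962) and LM2 replicate 3 (3144) each lowered the count by over 1.5 times when left out, as LM2 replicate 1 (88 genes lower in BrM2 and higher in LM2) and Par replicate 3 (111) did for the opposite directions. Of the 253 rule-selected genes past the threshold, none reversed, 100 passed in every fit, 113 were lost without the block, 3 with the GC correction and 69 in at least 1 fit with libraries left out. The cause was not tested. At the shallowest library, 3 counts were 0.221 CPM, which limits differences among genes near absence.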
